A study of Mus musculus with 8 samples.

Results

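Creatine kinases and adenylate kinases move the energy-rich phosphate of ATP from mitochondria to the sites that spend it. In heart muscle, the mitochondrial enzyme encoded by Ckmt2 makes phosphocreatine, and the cytosolic enzymes encoded by Ckm (muscle type) and Ckb (brain type) turn it back into ATP beside myofibrils and ion pumps. Cardiomyocytes take up most of their creatine from the blood through the transporter encoded by Slc6a8, whereas Gatm and Gamt encode the enzymes of creatine synthesis, a pathway best known from kidney, pancreas and liver. GAMT spends S-adenosylmethionine, which is also the methyl donor of METTL3. Ak1 encodes the cytosolic adenylate kinase of muscle, which interconverts ATP, ADP and AMP.

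These 7 genes were taken from the table by their symbols, out of 23045 genes, and all 7 were measured highly enough to be tested. Total RNA of hearts was compared between 4 WT and 4 Mettl3 KO libraries. The Mettl3 KO animals had the genotype Mettl3lox/lox:alphaMHC-MerCreMerpos, in which a Cre recombinase activated by tamoxifen is made under a cardiomyocyte promoter, and the WT animals were Mettl3lox/lox without Cre. Per the methods of the study both genotypes were injected with tamoxifen at an age of 10 to 16 weeks. Loss of Mettl3 and presence of MerCreMer therefore cannot be told apart, and the interval between tamoxifen and sampling is not given in the sources used here. The labels give the tissue only as heart, without saying which chambers were taken. Because tissue and not sorted cells was used, fewer cells of a type and less RNA per cell cannot be told apart either. The labels do not say that every library came from another animal, so p-values measure the spread between these samples, which may be technical.

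The deposited values are normalised read counts, rounded to whole numbers. They summed to 2839589 to 2916986 per library. The reads behind them came to between 2631281 and 3062476, as recovered from the spacing of low values. Mettl3 (ENSMUSG00000022160) checked the labels, with 116 ± 12.8 normalised read counts in WT and 72.3 ± 4.65 in Mettl3 KO libraries (SD, n = 4) and no overlap. Cardiomyocyte markers summed to 94992 to 101633 in WT and 92289 to 103097 in Mettl3 KO libraries. Ttn, at 67610 to 76105 over all libraries, made up most of each sum. Of the 10 markers 1, Ryr2, was called lower, and 3 had an unadjusted p under 0.05. Their median log2 fold change was 0.0483.

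METTL3 methylates adenosines mainly within a short consensus whose commonest form reads GGACT in DNA letters. To show where this motif stands in the members, the coding sequences of GENCODE M21 transcripts (GRCm38) were searched on the sense strand. It was absent from the coding sequence of Ckm and Ak1, occurred 1 time each in Slc6a8, Gatm and Gamt, and 2 times each in Ckmt2 and Ckb. Of 14345 protein-coding transcripts, 76.6% held it, with a median of 1.07 matches per kb of coding sequence, against which Ckb (1.75), Ckmt2 (1.59) and Gamt (1.41) lay higher and Gatm (0.788) and Slc6a8 (0.525) lower. The match nearest the end of each coding sequence is shown 5′ to 3′ with 8 bases on either side, the motif in capitals.
Ckmt2, bases 868 to 872 of the coding sequence: tctgtcgtGGACTaaaggaag
Ckb, bases 868 to 872: tgggcaccGGACTgcgggcag
Slc6a8, bases 177 to 181: cgccagatGGACTtcatcatg
Gatm, bases 186 to 190: ctgcccaaGGACTgccctgtc
Gamt, bases 42 to 46: cccggcgaGGACTgcggcccc
A match is only a run of letters. Methylation was not measured in these libraries, and the remainder of each transcript was not searched. That remainder holds the 3′ untranslated region, where the study places most of the modification made by METTL3.

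None of the 7 members was called between the genotypes (limma adjusted p of 0.119 to 0.807), where 7.91% of 20313 tested genes were. At an unadjusted p under 0.05 there were 2, Slc6a8 and Ak1, beside 20.6% of all tested genes, and limma voom called 0 as well. The genotypes overlapped for each member, whereas they did not for 11.5% of tested genes. Mean values were higher in Mettl3 KO libraries for 5 members and lower for Ckm and Slc6a8. The median log2 fold change was 0.10 over the members and -0.0086 over all tested genes. How far these data bound a change differed widely between the members and is given for each.

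**Figure D1:**
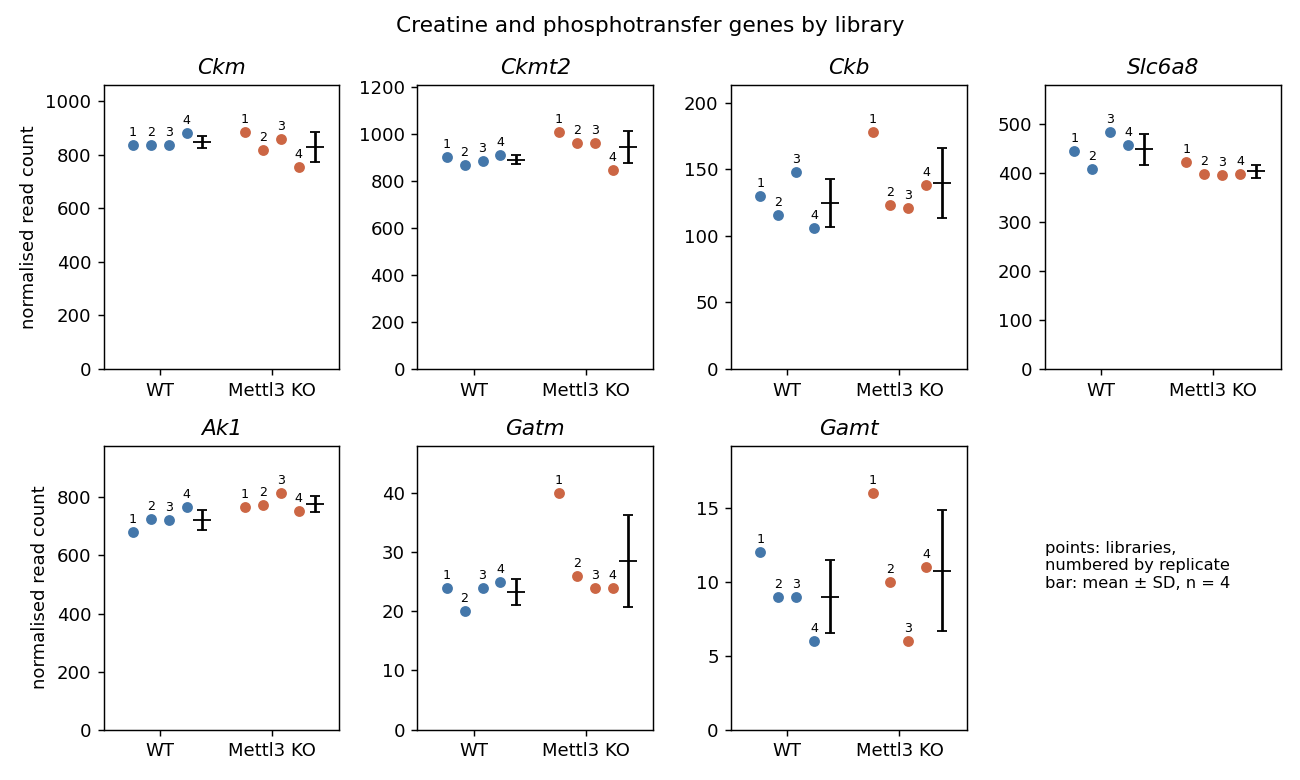
Normalised read count (vertical axes, each from 0) of the 7 genes in WT and Mettl3 KO hearts. Points are libraries numbered by replicate and bars are the mean ± SD (n = 4). The genotypes overlap for every gene, and Mettl3 KO replicate 1 is the highest Mettl3 KO library for 6 of 7 genes.

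Ckm (ENSMUSG00000030399, mm39 chromosome 7, 19138701 to 19156766, plus strand) encodes the muscle-type cytosolic creatine kinase. WT libraries read 835, 838, 836 and 882 normalised read counts, against 884, 818, 858 and 756 in Mettl3 KO ones. The Mettl3 KO values thus enclosed the WT values on both sides, with means of 848 ± 22.9 and 829 ± 55.7 (SD, n = 4). On the log2(value + 1) scale its log2 fold change came to -0.03 (SE 0.05, adjusted p = 0.772 by limma). Its 95% confidence interval, before any adjustment for multiple genes, ran from -0.14 to 0.07, that is from a change of -8.94% to 4.71%. It takes no account of the start positions that duplicate removal leaves to a transcript, and corrected for these the log2 fold change was -0.10 (SE 0.05). Without Mettl3 KO replicate 4, the lowest library, the sign turned and the log2 fold change was 0.0091.

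Ckmt2 (ENSMUSG00000021622, chromosome 13, 92001506 to 92025004, minus strand) encodes the sarcomeric mitochondrial creatine kinase. WT libraries stood at 903, 869, 886 and 912, and Mettl3 KO ones at 1009, 965, 964 and 849. Mettl3 KO replicates 1 to 3 lay above each WT library, and replicate 4 lay below them. Means were 892.5 ± 19.0 and 947 ± 68.5 (SD, n = 4), and the log2 fold change stood at 0.08 (SE 0.05, adjusted p = 0.370 by limma), with an interval from -0.02 to 0.18. Leaving out Mettl3 KO replicate 4 gave 0.13 (adjusted p = 0.0781 by limma) and leaving out replicate 1 gave 0.05 (adjusted p = 0.624 by limma).

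Ckb (ENSMUSG00000001270, chromosome 12, 111635795 to 111638772, minus strand), the brain-type isoform, is also made by smooth muscle and nerve cells. It was read at 130, 116, 148 and 106 under WT and at 178, 123, 121 and 138 under Mettl3 KO. Mettl3 KO replicate 1 stood above all others, and the remaining Mettl3 KO libraries lay within the WT range. A log2 fold change of 0.16 (SE 0.12, adjusted p = 0.509 by limma) had an interval from -0.08 to 0.40. It was 0.04 without Mettl3 KO replicate 1, 0.08 without WT replicate 4 and 0.24 without WT replicate 3, and passed in none of these. The 8 smooth muscle and pericyte markers summed to 4502 to 4901 in WT and 4191 to 4496 in Mettl3 KO libraries. Of these 1, Abcc9, was called and was lower (2105 to 2302 against 1826 to 1980). Abcc9 had the highest value of the list in every library, and whether its reads came from pericytes was not tested. The median log2 fold change of the 8 markers was 0.0296, and 4 of 8 had an unadjusted p under 0.05. The contractile genes Myh11, Tagln, Acta2 and Cnn1 had higher means in Mettl3 KO libraries. Myh11 stood at 256 to 303 against 262 to 335, and Tagln at 33 to 42 against 37 to 59. Rgs5 (1454 to 1561 against 1330 to 1525), Kcnj8 (125 to 132 against 96 to 127) and Pdgfrb had lower means. None of these was called. Neuron and Schwann cell markers summed to 65 to 88 and 64 to 110, and 1 of 6, the myelin gene Mbp, was called higher (10 to 14 against 20 to 29). The part of these cells in the Ckb values was not tested.

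Slc6a8 (ENSMUSG00000019558, chromosome X, 72716756 to 72726108, plus strand), the creatine transporter, had the lowest adjusted p among the members. Its normalised read counts were 445, 409, 484 and 458 under WT, against 423, 398, 397 and 398 under Mettl3 KO. Mettl3 KO replicates 2 to 4 lay below each WT library, but replicate 1 exceeded WT replicate 2. Its log2 fold change came to -0.15 (SE 0.06, adjusted p = 0.119 by limma, unadjusted 0.0152) and its unadjusted interval ran from -17.0% to -2.18%. It was negative in all 20 alternatives, between -0.19 and -0.11, and passed in none of them (limma adjusted p of 0.0552 to 0.308).

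Ak1 (ENSMUSG00000026817, chromosome 2, 32511770 to 32525070, plus strand), the cytosolic adenylate kinase, stood at 681, 724, 723 and 766 under WT, against 768, 772, 815 and 752 under Mettl3 KO. All Mettl3 KO libraries except replicate 4 lay above the highest WT library. Its log2 fold change came to 0.10 (SE 0.05, adjusted p = 0.210 by limma, unadjusted 0.0388), with an unadjusted interval from 0.405% to 14.9% higher. It was positive in all 20 alternatives and passed in none. Ak1 is also abundant in red cells, and the blood cell markers summed to 174 to 285 in WT and 123 to 199 in Mettl3 KO libraries.

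The creatine synthesis genes had the lowest values among the members, and their changes are loosely bounded. Gatm (ENSMUSG00000027199, chromosome 2, 122424948 to 122441784, minus strand) encodes the glycine amidinotransferase of the first step. It stood at 24, 20, 24 and 25 under WT, against 40, 26, 24 and 24 under Mettl3 KO. A high value in Mettl3 KO replicate 1 set it apart from otherwise similar libraries. The log2 fold change of 0.25 (SE 0.20, adjusted p = 0.538 by limma) had an interval from -0.16 to 0.67, and without that library it was 0.09. Gamt (ENSMUSG00000020150, chromosome 10, 80093985 to 80096846, minus strand), the methyltransferase of the second step, stood at 12, 9, 9 and 6 under WT, against 16, 10, 6 and 11 under Mettl3 KO. Its log2 fold change came to 0.20 (SE 0.32, adjusted p = 0.807 by limma) and ran from -0.0040 without Mettl3 KO replicate 1 and 0.04 without WT replicate 4 to 0.33 without WT replicate 1 and 0.42 without Mettl3 KO replicate 3. The interval of -0.47 to 0.86 would hold a sizeable change in either direction.

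**Figure D2:**
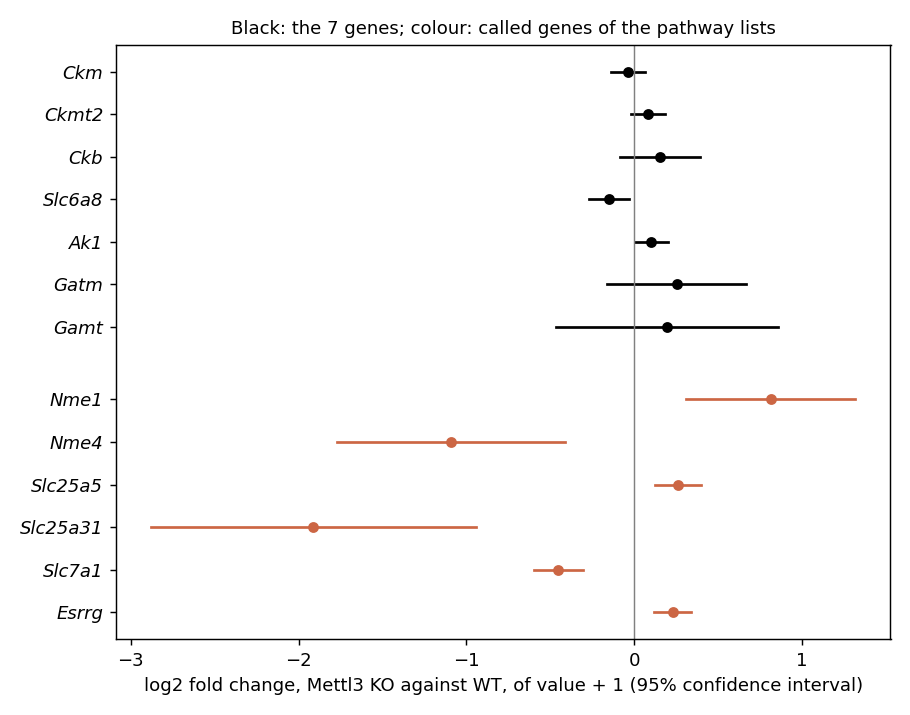
Log2 fold change of value + 1 in Mettl3 KO against WT hearts (horizontal axis), with lines for the unadjusted 95% confidence interval from limma (n = 4 per group). Black points are the 7 genes and coloured points the 6 called genes of the pathway lists. The interval of Ckm spans -0.14 to 0.07 and that of Gamt -0.47 to 0.86.

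Mettl3 KO replicate 1 was the highest Mettl3 KO library for each member except Ak1, while 25.6% of all tested genes had their highest Mettl3 KO value there. This library also had the fewest recovered reads (2631281), and 3 of 4 atrial markers stood lower there than in the other Mettl3 KO libraries. Bmp10, made in atrial muscle, read 0 here and throughout WT, against 195, 158 and 358 for Mettl3 KO replicates 2 to 4. Myl7 (23) and Sln (10) in replicate 1 were also within their WT ranges of 0 to 26 and 0 to 12. Nppa, in contrast, stood at 452, inside the 410 to 508 of the other Mettl3 KO libraries and above the 175 to 292 of WT, and made up most of the atrial sum of 485 in replicate 1. That sum ran from 485 to 1022 under Mettl3 KO, against 175 to 320 under WT. In each WT library Nppa also made up most of the sum. Whether Nppa came from atrial muscle was not tested. All 4 atrial markers were called higher by limma and 3 by limma voom, where limma called 958 of 20313 tested genes higher. The part of atrial tissue in the members' values was not tested. Among WT libraries, replicate 3 stood apart to a lesser degree. The chi-square per degree of freedom over genes was 1.30 to 1.72 between it and the other WT libraries, 1.15 to 1.32 among those, and 1.54 to 1.86 between Mettl3 KO replicate 1 and the rest of its group. WT replicate 3 had Myl7 and Sln at 0 and the highest WT values of Ckb (148) and Slc6a8 (484). With Mettl3 KO replicate 1 or WT replicate 3 left out, again none of the 7 members was called by limma.

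Markers of other cell types also differed between the genotypes. Of all 20313 tested genes, limma called 958 higher and 649 lower. Of 8 fibroblast markers 7 were called higher, with sums of 3648 to 4172 in WT and 4711 to 5671 in Mettl3 KO libraries. Of 8 endothelial markers 3 were called lower, with sums of 4294 to 4512 and 3728 to 4090. Skeletal muscle, which also expresses Ckm, Ckmt2 and Ak1, was represented by low marker sums of 36 to 52 in WT and 30 to 42 in Mettl3 KO libraries. The median log2 fold change of its 9 markers was -0.25, and 1, Tnni2, was called lower by limma (2 to 7 against 0 to 2), while 2 had an unadjusted p under 0.05 and 0 passed with limma voom. No macrophage marker was called (0 of 6, also at an unadjusted p under 0.05 and by limma voom), and adipocyte markers summed to at most 14 in any library. The part of these cells in the members' values was not tested.

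Levels were then set side by side per length, as normalised read counts per kb of transcript. Ckmt2 (601 ± 12.8) and Ckm (599 ± 16.2) led in WT hearts and did not differ beyond their spread (SD, n = 4). They were followed by Ak1 at 347 ± 16.6, Slc6a8 at 135 ± 9.42 and Ckb at 84.9 ± 12.4. Gatm at 9.86 ± 0.941 and Gamt at 9.11 ± 2.48 came last and again lay within their spread of each other. In Mettl3 KO hearts the order was unchanged, with 637 ± 46.1 for Ckmt2, 586 ± 39.4 for Ckm, 373 ± 12.9 for Ak1, 122 ± 3.82 for Slc6a8, 95.1 ± 18.0 for Ckb, 12.1 ± 3.28 for Gatm and 10.9 ± 4.16 for Gamt. The 1415 bases used for Ckm lie within the gene span of RefSeq, and with the 2742 bases of the GENCODE transcript its WT level would be 309 per kb, below Ak1.

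**Figure D3:**
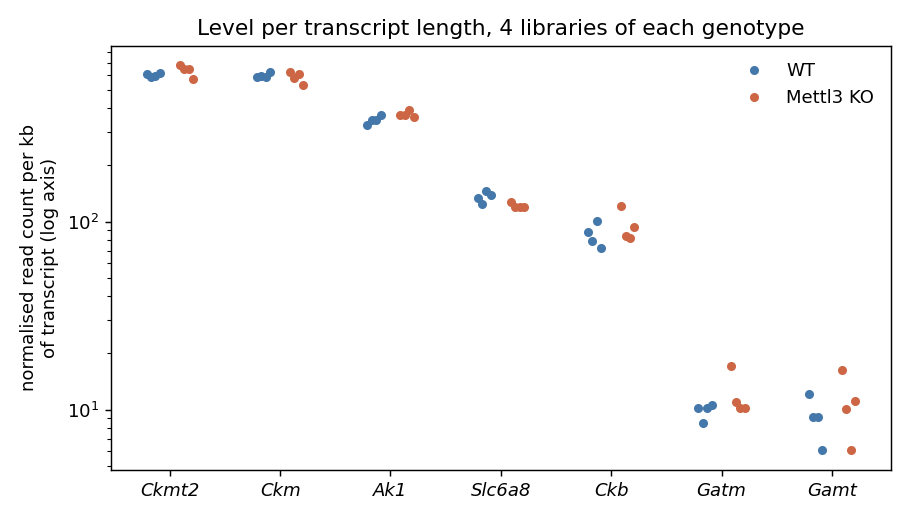
Normalised read count per kb of transcript (log axis) of the 7 genes, with 4 WT and 4 Mettl3 KO libraries as points. Ckmt2 (601) and Ckm (599) lead in WT hearts, and Gatm (9.86) and Gamt (9.11) come last. Over the longer GENCODE transcript Ckm would stand at 309, below Ak1 (347).

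For the most abundant members, the processing narrows what the values can show. The study removed duplicates of single-end reads, so a transcript can keep about 1 read per start position. Ckm had 56.4 to 63.9 recovered reads per 100 bases (29.1 to 33.0 over the longer transcript) and Ckmt2 58.5 to 65.7. Only 74 of 19546 tested genes with a known length (0.379%) exceeded 50 in the WT mean. In reads, Ckm ranged from 840 to 904 over WT and from 797 to 827 over Mettl3 KO libraries. Its normalised values in the Mettl3 KO group fell in the order of replicates 1, 3, 2 and 4 (884, 858, 818 and 756), as the reads of the whole library rose in that order (2631281, 2776292, 2890710 and 3053305). WT replicate 4, at 882, had the fewest reads of its group (2730757). Among the other WT libraries, at 835 to 838, the highest value belonged to the library with the most reads (3062476). The part of library depth in these values was not tested.

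When the values were corrected for start positions already used, assuming even use along the transcript, Ckm came to 1317 ± 23.4 in WT and 1234 ± 79.4 under Mettl3 KO (SD, n = 4). Its log2 fold change then stood at -0.10 (limma adjusted p = 0.258), that of Ckmt2 0.10 (limma adjusted p = 0.290) and that of Slc6a8 -0.17 (limma adjusted p = 0.0967). The Mettl3 KO libraries kept their order for Ckm (1301, 1283, 1229 and 1124 for replicates 1, 3, 2 and 4). None of the 7 passed with this correction, which was chosen after seeing the data. Wherever it is given, the correction used 1415 bases for Ckm. Over the longer transcript of 2742 bases it would be smaller, and this was not tried.

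Ratios between members within a library do not depend on the scaling, so 3 ratios to Ckm were compared. The log2 ratio of Ckmt2 to Ckm was 0.11, 0.05, 0.08 and 0.05 under WT, against 0.19, 0.24, 0.17 and 0.17 under Mettl3 KO. Each Mettl3 KO library exceeded each WT library. In linear terms, and not divided by length, the mean ratio of the normalised read counts was 1.05 under WT and 1.14 under Mettl3 KO. The difference of 0.12 gave p = 0.0286 in a two-sided exact permutation test, the smallest p that 4 against 4 libraries allow. Adjusted over the 3 ratios it was 0.0857 in this exact test, which is the smallest value that 1 separated ratio of 3 can reach, so that no such ratio could pass alone in this design. Corrected for start positions used, with 1415 bases for Ckm, the difference was 0.19, with the same exact p.

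The other ratios overlapped between the genotypes. The log2 ratio of Ckb to Ckm was -2.76 ± 0.24 in WT and -2.57 ± 0.24 in Mettl3 KO libraries (SD, n = 4, exact permutation p = 0.314, adjusted 0.314). Its difference of 0.19 ran from 0.10 without WT replicate 4 or without Mettl3 KO replicate 1 to 0.28 without WT replicate 3. That of Slc6a8 to Ckm was -0.92 ± 0.10 and -1.03 ± 0.08 (SD, n = 4, exact permutation p = 0.114, adjusted 0.171). Its difference of -0.12 ran from -0.07 without WT replicate 3 to -0.15 without WT replicate 2 or without Mettl3 KO replicate 4. The difference was also -0.07 when corrected for start positions used (exact permutation p = 0.4).

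**Figure D4:**
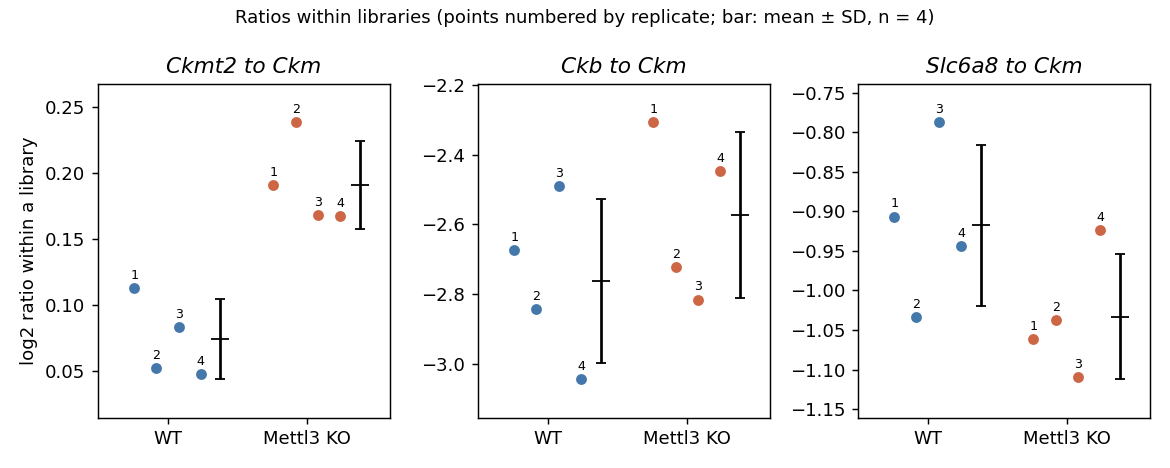
Log2 ratio of normalised read counts within a library (vertical axes, which do not start at 0) for Ckmt2, Ckb and Slc6a8 to Ckm. Points are libraries numbered by replicate, bars the mean ± SD (n = 4). For Ckmt2 to Ckm the WT libraries end at 0.11 and the Mettl3 KO libraries begin at 0.17, and the other ratios overlap.

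Around the members, 8 lists of 59 related genes were read from the same fit. Of 53 tested genes 6 were called, 3 higher and 3 lower in Mettl3 KO hearts, beside 7.91% of all tested genes, and their median log2 fold change was -0.0047. Among 4 other carriers of creatine and amino acids, Slc7a1, a transporter of arginine and other cationic amino acids, fell. It stood at 394, 383, 466 and 362 normalised read counts under WT, against 310, 299, 289 and 270 under Mettl3 KO. The genotypes did not overlap, and the log2 fold change stood at -0.45 (SE 0.07, adjusted p = 0.000211 by limma). Arginine is a substrate of the enzyme encoded by Gatm. The other tested carriers, Slc16a12, Slc6a6 and Slc6a9, were not called.

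Of 6 genes for the passage of ATP and ADP through mitochondrial membranes, 2 were called. Slc25a5, the more widely expressed adenine nucleotide translocase, rose from 247, 292, 260 and 251 to 312, 320, 335 and 292. The groups met at 292, and the log2 fold change stood at 0.26 (SE 0.07, adjusted p = 0.0157 by limma). It did not pass in 4 of 20 alternatives, namely without WT replicate 1 or 4 (limma adjusted p = 0.0636 and 0.0566) or without Mettl3 KO replicate 2 or 3 (limma adjusted p = 0.0560 and 0.0807). Slc25a4, the heart and muscle translocase, was at 909 to 1015 in WT and 935 to 1046 in Mettl3 KO libraries and was not called (limma adjusted p = 0.303). Slc25a31, a translocase best known from testis, read 4, 4, 3 and 3 under WT, against 0, 0, 1 and 0 under Mettl3 KO (limma adjusted p = 0.0121), values too low to give the size of a change. It reached the minimum mean of 1 only through its WT values, and a minimum mean of 10 left it out. Vdac1, Vdac2 and Vdac3 of the outer membrane were not called.

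Nucleoside diphosphate kinases pass phosphate from ATP to other nucleotides, and 2 of 6 tested genes were called. Nme1 read 20, 13, 13 and 9 under WT, against 20, 29, 24 and 24 under Mettl3 KO, a log2 fold change of 0.81 (SE 0.24, adjusted p = 0.0414 by limma). Nme4, the mitochondrial form, read 13, 14, 16 and 14 under WT, against 8, 3, 5 and 11 under Mettl3 KO, a log2 fold change of -1.09 (SE 0.33, adjusted p = 0.0424 by limma). Both calls rested on few reads and were each lost in 6 of the 8 fits that left out 1 library. For Nme1 these left out WT replicate 2, 3 or 4 or Mettl3 KO replicate 2, 3 or 4 (limma adjusted p of 0.0721 to 0.136). For Nme4 they left out any WT replicate or Mettl3 KO replicate 2 or 3 (limma adjusted p of 0.0814 to 0.140). Nme1 and Nme2 are close copies, and removal of multi-mapping reads could make their values uncertain, which was not tested.

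Other adenylate kinases were not called, as 0 of 6 tested genes of the list with Ckmt1 passed with limma or with limma voom, and 2 had an unadjusted p under 0.05. These were Ckmt1, the ubiquitous mitochondrial creatine kinase, and Ak3, the kinase of the mitochondrial matrix. Ckmt1 read 1, 1, 0 and 0 under WT, against 4, 2, 2 and 3 under Mettl3 KO, without overlap. Its log2 fold change was 1.37 (SE 0.48, adjusted p = 0.0874 by limma), from values too low to give the size of a change. For Ak3 the log2 fold change was 0.17 (SE 0.07, adjusted p = 0.126 by limma). Of 9 genes for AMP sensing and deamination 0 passed with limma, 2 had an unadjusted p under 0.05 and 1 passed with limma voom. Ampd3, an AMP deaminase, read 245, 239, 283 and 245 under WT, against 219, 221, 215 and 215 under Mettl3 KO, without overlap (log2 fold change -0.21, SE 0.07, limma adjusted p = 0.0538). Prkab2, a regulatory subunit of AMP-activated protein kinase, read 339, 314, 334 and 310 under WT, against 382, 344, 357 and 343 under Mettl3 KO, also without overlap (log2 fold change 0.14, SE 0.06, limma adjusted p = 0.180).

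The supply of methyl groups, which creatine synthesis and RNA methylation share, showed no called gene among 10 tested (1 at an unadjusted p under 0.05, 0 with limma voom). Its sums were 3444 to 3676 in WT and 3202 to 3529 in Mettl3 KO libraries. None of the 4 M-band anchors of creatine kinase was called either, with 0 at an unadjusted p under 0.05 and 0 with limma voom. Among 8 transcription factors and coactivators of muscle energy genes, Esrrg, an orphan nuclear receptor, rose from 500, 467, 487 and 458 to 554, 562, 601 and 528 without overlap. Its log2 fold change came to 0.23 (SE 0.05, adjusted p = 0.00696 by limma). In this list 3 genes had an unadjusted p under 0.05 and 2 passed with limma voom.

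The genes whose values ran most like those of Ckm and Ckb were listed among 6778 genes with a mean of at least 100, by Pearson correlation of log2(value + 1) over the 8 libraries. Likeness to Ckm was highest for Ccng1 (0.96), Atp5pb (0.96) and Uqcrc1 (0.95). For Ckb it was highest for Arrb1 (0.97), Slc3a2 (0.96) and Lrp5 (0.95). These coefficients are the highest over all these genes and 8 libraries that share their depth and scaling, and describe the libraries only.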

How the data were processed

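The authors sequenced total RNA of mouse hearts as stranded single-end libraries. Per their methods, they trimmed reads with Trimmomatic 0.39, aligned them to mm39 using STAR 2.7.11a and Ensembl release 109, removed duplicates (Picard 3.1.1), multi-mapping, ribosomal and mitochondrial reads, counted exonic reads by strand with featureCounts 2.0.4 and normalized with DESeq2 1.36.0. The deposited values are a score, namely normalized read counts rounded to whole numbers, and not raw counts. The planned fallback for normalized values was therefore used.

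A minimum mean of 1 kept 20313 genes and dropped 2732. Their log2(value + 1) was modelled by genotype alone in limma 3.58.1 (R 4.3.3), letting the variance follow the mean. p was two-sided and adjusted by Benjamini-Hochberg over all tested genes at a threshold of 0.05. A fold change on this scale understates that of low genes. The fit and the recovery of reads, in which the factor that each library's reads were multiplied by was found by maximum likelihood, were tested on simulated data.

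Lengths came from GENCODE M21 (GRCm38), trimmed to the RefSeq gene span, for 96.2% of tested genes. Locations are those of the table (mm39). Members and lists were chosen with earlier results of these data known. Named genes were the members, Mettl3, called genes of the pathway lists and the 3 genes most like Ckm and Ckb. Other genes are named to account for a list, and Ak3, Ampd3, Prkab2, Ckmt1, Slc25a4 and single cell type markers were given values after these were seen. Ak5, Ak7, Ak8, Mat1a and Cidec were under the minimum, and Nme3, Ampd1 and Ucp1 were not tested. Alternatives were 3 scalings, pseudocounts of 0.5 and 5, other filters, limma voom, robust estimation, the replicate number as a block and each library left out.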

Additional observations from a re-analysis of the deposited data

Results flagged for a closer look

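In each group of 4 libraries, the gap between the highest or lowest library and its nearest neighbour was divided by the range of the group and compared with Dixon's critical value of 0.829. Of 34 groups examined (7 members, Mettl3, 6 called pathway genes and 3 ratios in each genotype) 4 exceeded it, where chance gives 1.7. Ckm in WT libraries reached 0.936, with replicate 4 at 882 against 835 to 838. Slc6a8 in Mettl3 KO libraries had 0.962, with replicate 1 at 423 against 397 to 398. Gatm in Mettl3 KO libraries had 0.875, with replicate 1 at 40 against 24 to 26. For Slc25a31 the Mettl3 KO share was 1, from replicate 3 at 1 and the others at 0. For whole numbers of 0 and 1 with a single 1, this share can only be 1, so this value carries no weight and the chance count does not hold for it.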

How the results depend on the processing

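None of the 7 members was called in any of 20 alternatives, of which Gamt, under the filter of a mean of at least 10, had 19. The sign of Ckm turned without Mettl3 KO replicate 4 and that of Gamt without Mettl3 KO replicate 1. Over the fits that left out 1 library, Ckm ran from -0.066 to 0.0091 and Gamt from -0.0040 to 0.42. Genes called over the whole table came to 1005 to 1593 when 1 library was left out (1607 with all), 607 to 910 of them higher and 398 to 683 lower. Called pathway genes then numbered 3 to 8. The cause of these shifts was not tested. The lowest counts of the whole table came without Mettl3 KO replicate 3, and those of the pathway genes without WT replicate 4, Mettl3 KO replicate 2 and Mettl3 KO replicate 3.

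Replicate numbers showed little sign of pairing the samples, though so few libraries cannot exclude a pairing. Deviations of equally numbered libraries correlated at -0.04 to 0.09, and 3 of 8 libraries were closest to their own number. With the replicate block 1346 genes were called, 810 higher and 536 lower, with 4 pathway genes (not Nme1 and Nme4, limma adjusted p = 0.0724 and 0.0649) and 0 members. For the ratio of Ckmt2 to Ckm (difference of 0.12, which a block cannot alter here), an exact sign-flip test of 4 pairs gave p = 0.125, the smallest it allows. In the other settings, 1524 (limma voom) to 1687 genes (a mean of at least 10) were called, with 6 to 8 pathway genes. Correcting for start positions used, an alternative chosen after seeing the data like limma voom on recovered reads, moved the difference in the ratio of Ckmt2 to Ckm to 0.19 and gave the same exact permutation p of 0.0286. Depth limits Gatm and Gamt, with at most 40 normalised read counts in a library.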
